A study of Helianthus annuus with 12 samples.

Results

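Sunflower roots and leaves were compared for how their small RNAs moved when seedlings stood in polyethylene glycol (PEG), and each small RNA was described by the difference between its PEG effect in roots and its PEG effect in leaves. The effects were log2 fold changes, PEG over control, so a negative difference means that the effect was lower in roots than in leaves. The members were the microRNA families in the deposited count table: 38 known families, formed by summing all names with the same number, and 90 predicted microRNAs, each taken alone. These 128 families came from 163 known names and 90 predicted ones among 15900 named features, and 124 of them, 34 known and 90 predicted, reached 10 counts in at least 3 libraries and were tested. All 12 libraries entered the comparison.

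The plants were Helianthus annuus seedlings of cultivar R5, described by the submitters as tolerant to drought, grown in soil and moved to culture bottles at the 4-leaf stage. Bottles held either water (control) or water with 15% PEG 6000, a polymer that roots do not readily take up and that lowers the water potential around them, and all organs were collected after 24 h. Leaves and roots of control and of PEG-treated seedlings made 4 groups with 3 libraries each, and every group shared the cultivar, the rinse and the transfer to bottles. The labels do not state that replicates were separate plants or that leaf and root libraries sharing a number came from 1 set of seedlings, so p-values measure the spread between these libraries, which may be technical.

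Plant microRNAs are cut from hairpin precursors by DICER-LIKE1, loaded into ARGONAUTE1, and guide the cleavage or translational repression of transcripts with near-perfect matching sites. Many families conserved among seed plants target transcription factors and hormone receptors, and others answer to phosphate, sulphate or copper supply. Under water deficit, families such as miR160, miR167, miR171, miR396 and miR398 have been followed in many crops, in leaves and roots.

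Total counts were 20829490 to 33426228 per library, of which 2161422 to 4606637 fell in microRNAs. Among predicted microRNAs and siRNAs no library listed a count from 1 to 9, so a 0 there can stand for up to 9 reads. Control root replicate 3 stood apart from the other control roots: known microRNAs took 0.550% of its reads against 1.12% and 1.85%, RNAs matched to microRNA precursor families 1.10% against 0.0414% and 0.0461%, and tRNA fragments 0.123% against 0.0336% and 0.0366%. Its TMM scaling factor was 0.496, the lowest of the 12, so differences of the families described in full are given with and without it. Levels are counts per 1000000 microRNA counts after TMM scaling (CPM). The libraries are bulk organs, in which fewer cells of a type and less RNA per cell cannot be told apart.

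No microRNA family passed the threshold for the difference between organs. In edgeR's quasi-likelihood test 0 of 124 families had an adjusted p under 0.05 (0% of families tested), with or without control root replicate 3, and 30 had an unadjusted p under 0.05 (24.2%). Of these 30, 24 (19.4%) had a lower PEG effect in roots than in leaves and 6 (4.84%) a higher one. Without control root replicate 3 the unadjusted count was 18 (14.5%), 14 lower (11.3%) and 4 higher (3.23%). This count of lower against higher differences depends on the scaling: it was 29 against 4 with DESeq2-type factors, 15 against 27 with upper-quartile factors, 14 against 18 with microRNA totals and 17 against 14 with totals of all reads. DESeq2 called 30 families, 27 of them lower, and with the replicate number as a block edgeR called 11, all lower. The calls also turned on single libraries, since 27 families passed without control leaf replicate 3, all lower, 17 without control root replicate 2, 12 without PEG leaf replicate 1 and 1 without PEG leaf replicate 2.

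By sign alone, 47 families were higher under PEG in both organs, 13 lower in both, 35 higher in leaves and lower in roots, and 29 the reverse. Of the 34 known families, 19 were higher in both organs, 2 lower in both, 2 higher in leaves and lower in roots, and 11 the reverse. Of the 90 predicted microRNAs, 28 were higher in both organs, 11 lower in both, 33 higher in leaves and lower in roots, and 18 the reverse. In these counts an effect of 0 was taken as lower. Leaf effects of 0 belonged to novel_mir14, novel_mir16, novel_mir31, novel_mir32, novel_mir36, novel_mir53, novel_mir54, novel_mir70 and novel_mir81, and a root effect of 0 to novel_mir72. Among predicted microRNAs only novel_mir15, novel_mir18 and novel_mir51 had negative effects in both organs. Without control root replicate 3 the known families split 16, 6, 5 and 7 in that order. The signs move with the scaling, which shifted the median difference of all families from -0.14 with TMM to -0.29 with DESeq2-type factors, 0.57 with upper-quartile factors, 0.49 with microRNA totals and 0.29 with totals of all reads. Across these 5 scalings 27 families had opposite signs in the 2 organs each time, 25 of them predicted, 16 with the leaf effect positive and 11 with the root effect positive. Another 16 families were higher in both organs under each scaling, and 4 lower in both. In these counts across scalings an effect of 0 was taken as neither sign.

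**Figure D1:**
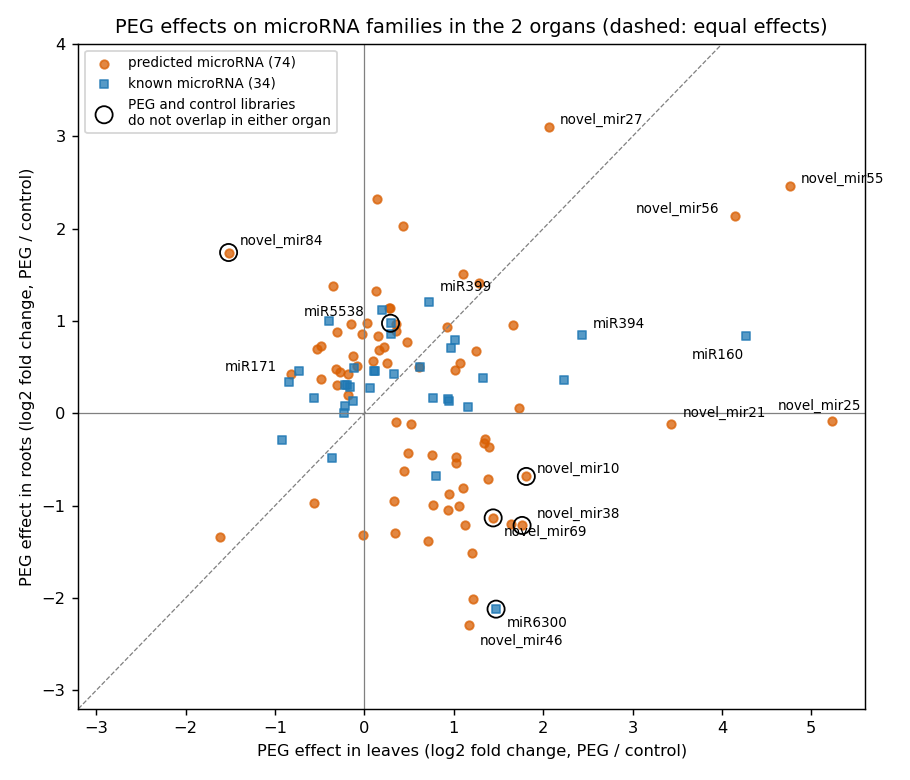
PEG effect in leaves (horizontal axis, log2 fold change) against the PEG effect in roots (vertical axis, log2 fold change) for the 108 families with counts in every group, 74 predicted (circles) and 34 known (squares), with equal effects on the dashed line and rings round families whose PEG and control libraries did not overlap in either organ. The lower right holds families higher in PEG leaves and lower in PEG roots, such as miR6300 (1.47 and -2.12), and novel_mir84 lies alone among ringed families at the upper left (-1.52 and 1.74).

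A few families lay on opposite sides of their controls in the 2 organs, with no overlap between PEG and control libraries. These 5 of 124 (4.03%) were novel_mir69, novel_mir10, novel_mir38 and miR6300, higher in PEG leaves and lower in PEG roots, and novel_mir84, the reverse. Within 1 organ, 26 families (21%) did not overlap in leaves and 38 (30.6%) in roots. Without control root replicate 3 miR319, a regulator of TCP transcription factors, and novel_mir63 joined the 5. The levels were not rescaled for this, so leaving out a control could only add families, and the 5 could not lose the pattern. None passed for the difference with all libraries (edgeR), whereas DESeq2 called all 5. Over 22 other settings (23 for miR6300), miR6300 passed under 9, novel_mir10 under 8, novel_mir69 and novel_mir84 under 5 each and novel_mir38 under 4. Without control leaf replicate 3 novel_mir69, novel_mir10, novel_mir38 and miR6300 passed (adjusted p = 0.0142, 0.00393, 0.00294 and 0.0116) and novel_mir84 did not (0.0761), and the replicate block had the same split (adjusted p = 0.0430, 0.0482, 0.0430 and 0.0482 for those that passed). novel_mir84 passed with upper-quartile factors (adjusted p = 0.0418), where the others did not, and with DESeq2-type factors (adjusted p = 0.04998) as miR6300 and novel_mir10 did. Without control root replicate 2 all 5 passed.

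Of the first 4, novel_mir69, a predicted locus of 339 bases, stood at 59.9, 27.3 and 81.7 CPM in control leaves and 110.1, 117 and 231 CPM in PEG leaves. In roots it stood at 6293, 6999.5 and 19358 CPM in controls and 5360.2, 4690.3 and 4839.8 CPM under PEG. Every PEG leaf was above every control leaf and every PEG root below every control root, although PEG root replicate 1 and control root replicate 1 were close. The effects were 1.44 in leaves and -1.13 in roots (difference -2.57, 95% interval -4.26 to -0.89, adjusted p = 0.0852, edgeR), and without control root replicate 3 the root effect was -0.42 and the difference -1.86. novel_mir10, a predicted locus of 152 bases and one of the most abundant small RNAs of roots, went from 405, 535 and 1644 CPM in control leaves to 1919, 1710.4 and 5437 CPM in PEG leaves. Its root levels were 115739, 86770.5 and 110327 CPM in controls and 81485, 54163 and 59123 CPM under PEG. The highest control leaf, replicate 3, lay just under the lowest PEG leaf, and the root groups were separated by a smaller step. Its difference was -2.50 (interval -4.33 to -0.66, adjusted p = 0.0925) and stayed at -2.45 without control root replicate 3.

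novel_mir38, a predicted locus of 253 bases, held 9.62, 5.27 and 58.8 CPM in control leaves and 64.4, 83 and 102 CPM in PEG leaves. In roots it held 2416, 2167 and 7403 CPM in controls and 1546, 1593 and 2026 CPM under PEG. Control leaf replicate 3 was close to the PEG leaves and control root replicate 3 was far above the other roots, and the groups still did not overlap. The difference was -2.98 (interval -5.46 to -0.50, adjusted p = 0.134), or -2.18 without control root replicate 3. The known family miR6300, a single name described in soybean, was low in leaves, with raw counts of 11, 5 and 19 under control conditions and 22, 28 and 40 under PEG, or 2, 1.25 and 6.11 against 6.36, 8.18 and 11.2 CPM. Control roots had 340, 512 and 948 reads of it and PEG roots 292, 178 and 267, or 168, 192 and 683 against 98.3, 57.2 and 84.2 CPM. The groups were apart in both organs, with PEG leaf replicate 1 just above control leaf replicate 3, and the leaf effect of 1.47 rests on far fewer reads than the root effect of -2.12. The difference was -3.59 (interval -6.08 to -1.11, adjusted p = 0.0852), and -2.65 without control root replicate 3.

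novel_mir84, a predicted locus of 192 bases, had the reverse pattern. Its level was 12, 23.3 and 22.8 CPM in control leaves and 8.09, 8.18 and 3.92 CPM in PEG leaves, against 62.3, 97.3 and 9.36 CPM in control roots and 158, 232 and 178 CPM in PEG roots. All PEG leaves were below all control leaves and all PEG roots above all control roots, with control root replicate 3 the lowest root by far. The effects were -1.52 in leaves and 1.74 in roots (difference 3.26, interval 0.78 to 5.74, adjusted p = 0.101), and 1.24 in roots without control root replicate 3 (difference 2.76). novel_mir84 was the 1 family whose libraries failed to overlap in opposite directions under all 5 scalings. miR6300 did so under 4, novel_mir38 under 2, and novel_mir69 and novel_mir10 under TMM alone, although these 4 had opposite signs under all 5.

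**Figure D2:**
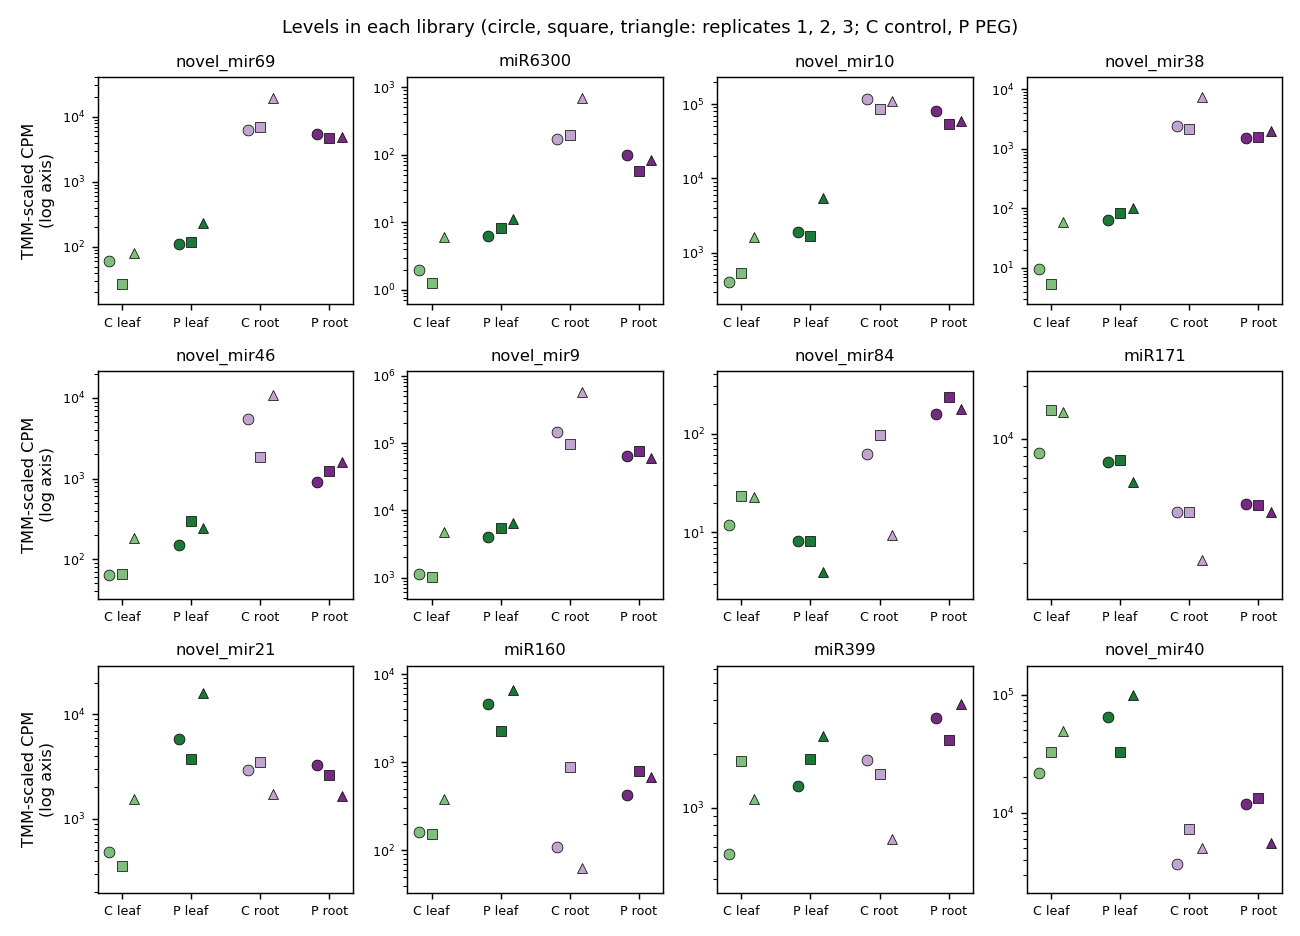
Level of 12 families in each of the 12 libraries (TMM-scaled CPM of microRNA counts, log axis), leaves before roots and controls before PEG, with circle, square and triangle for replicates 1, 2 and 3. Leaf and root points shift in opposite directions for novel_mir69, miR6300, novel_mir10, novel_mir38 and novel_mir84, leaf points alone are separated for novel_mir21 and miR160, and control root replicate 3 (triangle) lies far from the other control roots in many panels.

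With TMM scaling, several predicted microRNAs had a lower PEG effect in roots with separation in roots alone. Across the 5 scalings, novel_mir59 was apart in opposite directions in both organs under 3, novel_mir83 under 2 and novel_mir9 under 1. With microRNA totals novel_mir46 was apart in leaves, PEG higher, and overlapped in roots. novel_mir46, a predicted locus of 116 bases, was at 5432, 1869 and 10989 CPM in control roots and 899.5, 1237 and 1608 CPM in PEG roots, and at 63, 65.5 and 181 CPM in control leaves and 151, 301 and 243 CPM in PEG leaves. The PEG roots lay below all control roots, while in leaves PEG leaf replicate 1 was under control leaf replicate 3. Its difference was -3.46 (interval -5.48 to -1.44, adjusted p = 0.0737; -2.72 without control root replicate 3). novel_mir9, abundant in roots, stood at 146707, 98054 and 564193 CPM in control roots and 65169.5, 75168 and 60845 CPM in PEG roots. Control root replicate 3 was far above the others. The leaf levels of novel_mir9 were 1143, 1003 and 4726 CPM in controls and 4016, 5439.5 and 6526 CPM under PEG. Its difference of -3.23 (adjusted p = 0.0852) fell in size to -2.09 without control root replicate 3. novel_mir83 (difference -2.85, adjusted p = 0.0852) and novel_mir59 (-2.72, adjusted p = 0.0910) had the same layout, with leaf groups that overlapped and root groups that did not, and stood at -2.42 and -1.98 without control root replicate 3.

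Separation in leaves alone, with TMM scaling, marked miR160 and the predicted novel_mir21 and novel_mir25. With DESeq2-type factors novel_mir21 was apart in roots as well, PEG lower. The miR160 family, which cleaves transcripts of repressing auxin response factors, held 162, 155 and 380.3 CPM in control leaves and 4587, 2275 and 6586 CPM in PEG leaves. In roots it held 111, 886 and 62.7 CPM in controls and 422, 794 and 680.2 CPM under PEG, with control root replicate 2 above all PEG roots. The leaf effect of 4.27 passed the threshold (adjusted p = 0.0324, edgeR), and the root effect was 0.84 (adjusted p = 0.545). In leaves 4 of 124 families passed (3.23%) and in roots 0 (0%), where DESeq2 called 22 and the unadjusted p of 19 (15.3%) was under 0.05. The leaf count was 25 without control leaf replicate 3, 7 without PEG leaf replicate 1, 4 without PEG leaf replicate 2, 0 without control leaf replicate 1 or 2, and 1 or 2 without any other library. The difference itself was -3.43 (interval -6.15 to -0.71, adjusted p = 0.119; -3.93 without control root replicate 3), so a larger response in leaves than in roots was not called. It reached adjusted p = 0.0386 without control leaf replicate 3.

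novel_mir21, a predicted locus of 257 bases, went from 481, 357 and 1538 CPM in control leaves to 5866, 3706 and 16128 CPM in PEG leaves. Its roots held 2969, 3476 and 1739 CPM in controls and 3255, 2634 and 1668 CPM under PEG, a range within which the groups overlapped. The difference was -3.55 (interval -5.63 to -1.47, adjusted p = 0.0737) and -3.79 without control root replicate 3, so novel_mir21 is one of the few whose difference grew when that library was left out. It passed the threshold under 10 of 22 other settings, more than any other family described here. novel_mir25 had raw counts of 0, 0 and 10 in control and 52, 82 and 268 in PEG leaves, with 248, 230.2 and 198 CPM in control roots and 150.5, 307 and 183 CPM in PEG roots (difference -5.31, adjusted p = 0.0852; -5.41 without control root replicate 3). The predicted microRNAs novel_mir2 and novel_mir12 (adjusted p = 0.0737 and 0.0767) were at 0 in all control leaves. In PEG leaves novel_mir2 had 0, 10 and 20 counts and novel_mir12 0, 45 and 33, which makes them at least 1.26-fold and 3.30-fold higher against a floor of 9 counts per library. The bound of novel_mir2 is lost without PEG leaf replicate 3, and that of novel_mir12 falls to 2.04-fold without PEG leaf replicate 2. In roots novel_mir2 went from 313, 246 and 669 CPM to 91.2, 95.7 and 150.1 CPM without overlap, and novel_mir12 overlapped.

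After novel_mir84, the described families with a higher PEG effect in roots and with counts in every group had differences of 1.74 or less. The miR171 family, which targets GRAS transcription factors of the SCARECROW-LIKE group, held 8350.4, 14539.5 and 14200.5 CPM in control leaves and 7395, 7625 and 5719.9 CPM in PEG leaves. Its roots held 3856, 3854 and 2069.6 CPM in controls and 4289, 4252 and 3841 CPM under PEG. The leaf groups did not overlap, the root groups did, and control root replicate 3 was the lowest root. The effects were -0.84 in leaves and 0.34 in roots (difference 1.18, interval 0.07 to 2.29, adjusted p = 0.191; 0.94 without control root replicate 3), and with DESeq2-type factors the root effect was -0.13. The difference of miR171 passed under 3 of 23 other settings, which were DESeq2-type factors, upper-quartile factors and DESeq2. Its lower leaf effect passed under these and with known families alone.

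novel_mir80, a predicted locus of 585 bases, was at 460.3, 466 and 128 CPM in control roots and 782, 885 and 1083 CPM in PEG roots without overlap, while its leaves overlapped at 1189.6, 1649 and 1735 CPM and 1105, 1256 and 1210.1 CPM (difference 1.74, adjusted p = 0.174; 1.34 without control root replicate 3). Under each of the other 4 scalings its leaf groups were apart as well, PEG lower, while its root groups stayed apart with PEG higher. novel_mir63, at 2545, 2463 and 2164 CPM in control leaves and 1980.5, 1887 and 1924 CPM in PEG leaves, had leaf groups that did not overlap and a difference of 1.19 (adjusted p = 0.200; 1.27 without control root replicate 3). Its locus lies 77132 bases from that of novel_mir64, which in turn lies 78535 bases from that of novel_mir65 on the same chromosome sequence. novel_mir65 had a difference of 1.23 (adjusted p = 0.323) and novel_mir64 one of 0.38 (adjusted p = 0.693), and all 3 had negative leaf and positive root effects with TMM. With TMM, novel_mir43, novel_mir82 and novel_mir33 (differences 1.13, 1.20 and 0.72) were separated in roots and not in leaves. Across the 5 scalings novel_mir33 was apart in opposite directions in both organs under 3, and novel_mir43 and novel_mir82 under 1 each. With upper-quartile factors their differences passed (adjusted p = 0.04185, 0.04185 and 0.04239, edgeR). novel_mir8 and novel_mir26 were at 0 in all control roots and had 10, 0 and 10 and 16, 0 and 10 counts in PEG roots, below 9 on average, so no fold is given.

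**Figure D3:**
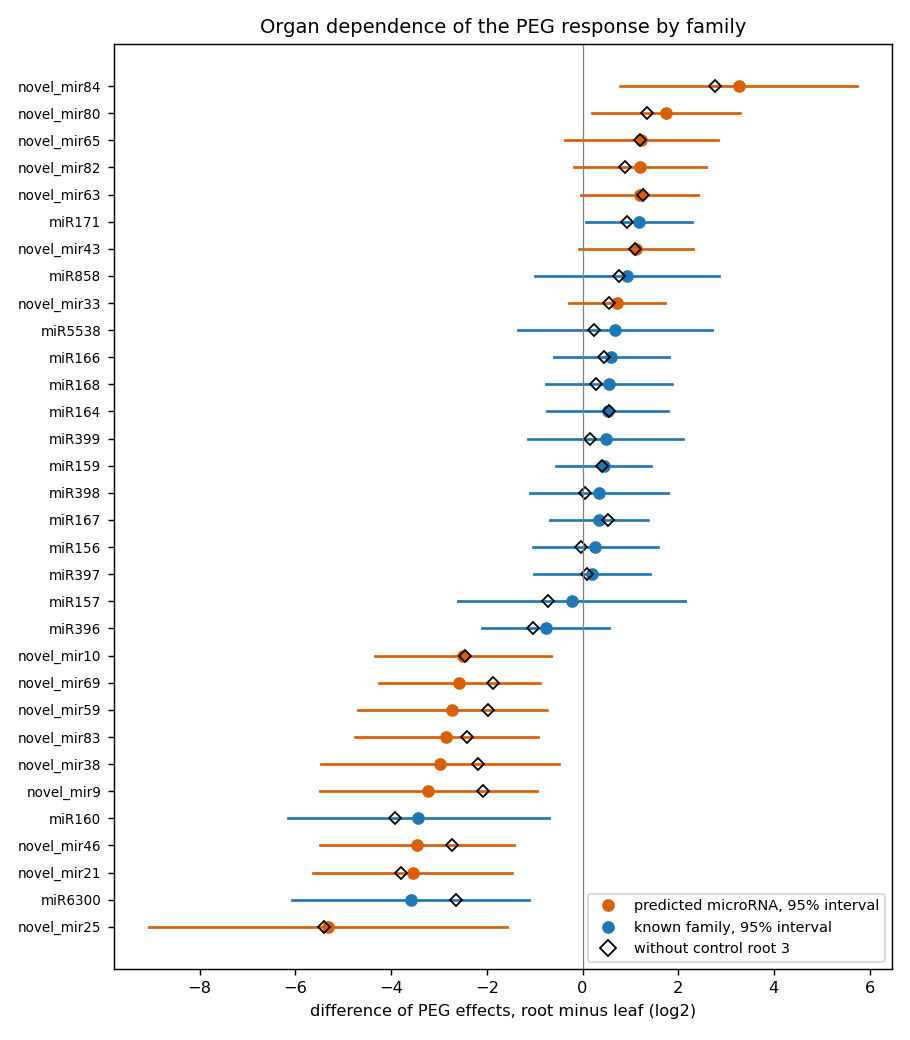
Difference of the PEG effects, root minus leaf (log2), for described families with counts in every group, as estimates with 95% intervals (circles; predicted in orange, known in blue) and as estimates without control root replicate 3 (diamonds). Intervals of miR166, miR167, miR168, miR396 and miR398 span 0, and leaving out that library brings most estimates nearer to 0 but moves miR160 (-3.43 to -3.93) and novel_mir21 (-3.55 to -3.79) away from it.

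Families that moved the same way in both organs were described by the average of the leaf and root effects. For this average 0 of 124 families passed (0%), with 18 at an unadjusted p under 0.05 (14.5%), all higher, and 15 without control root replicate 3 (12.1%). DESeq2 called 8 and limma voom 1, and edgeR called 5 without control leaf replicate 3 and 1 without PEG leaf replicate 1 or control root replicate 2. The 1 family without overlap in the same direction in both organs (0.806%) was miR5538, known from rice, with leaf counts of 31, 17 and 18 in controls and 25, 20 and 22 under PEG. Its root counts were 2, 4 and 0 in controls and 6, 6 and 5 under PEG, so its effects of 0.29 and 0.98 rest on few reads. Its leaf counts overlapped before TMM scaling, and under each of the other 4 scalings the groups overlapped in at least 1 organ or took another direction.

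The family miR399, which represses the ubiquitin conjugase PHO2 and so keeps phosphate uptake active, had an average effect of 0.96 (adjusted p = 0.208). It stood at 550.0, 1821 and 1112 CPM in control leaves and 1327, 1878 and 2528 CPM in PEG leaves, and at 1839, 1545 and 666 CPM in control roots and 3176, 2393 and 3790.3 CPM in PEG roots. The roots did not overlap, the leaves did, and the leaf effect was 0.72 with TMM and -0.11 with upper-quartile factors. All 7 of its tested names had a positive effect in each organ. novel_mir40, a predicted locus of 90 bases, had equal effects of 0.93 in both organs (difference 0.01, interval -1.58 to 1.59; average adjusted p = 0.208). Its levels were 21692, 32763 and 49357 CPM in control leaves, 64754, 32571 and 100200.0 CPM in PEG leaves, 3712, 7265 and 5058 CPM in control roots and 11829.7, 13247 and 5569 CPM in PEG roots, with overlap in both organs.

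Several large average effects came with 1 or 2 high libraries. novel_mir55 and novel_mir56, whose loci lie 272278 bases apart on one chromosome sequence, had averages of 3.61 and 3.14 (adjusted p = 0.114 each, edgeR). Both were high in PEG leaf replicate 3, at 4528 and 28757 counts, and in PEG root replicate 1, at 189 and 10625, and the groups overlapped in both organs. novel_mir27 reached 8406 CPM in PEG leaf replicate 3, against 652, 1083 and 788 CPM in control leaves, and 2280 CPM in PEG root replicate 2, against 137, 151 and 39.6 CPM in control roots (average 2.58, adjusted p = 0.114). novel_mir30 was at 0 in all control roots and had 19, 208 and 0 counts in PEG roots. On average it was at least 5.12-fold higher in PEG roots, a bound set by PEG root replicate 2, without which the mean lies under the floor. In leaves it had 4781 CPM in PEG leaf replicate 3 and 148 and 265 CPM in the other PEG leaves. miR160 (average 2.55, adjusted p = 0.114, edgeR; 2.31 without control root replicate 3) had the smallest p. miR394, which targets the F-box transcript LEAF CURLING RESPONSIVENESS in Arabidopsis, had effects of 2.44 in leaves and 0.85 in roots (average 1.64, adjusted p = 0.208). On the lower side the smallest p belonged to novel_mir51 (average -1.47, adjusted p = 0.340), novel_mir15 (-0.77), novel_mir46 (-0.56), novel_mir20 (-0.48) and miR395, a regulator of sulphate assimilation (-0.61, adjusted p = 0.605). Of these, novel_mir46 and novel_mir20 had negative effects in roots alone, with leaf effects of 1.17 and 0.34. The novel_mir51 average turns on control leaf replicate 2, which held 216 CPM against 9.25 and 7.72, and was 0.12 without it.

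By single name, 1 microRNA passed for the average effect, miR162-3p (4.79, adjusted p = 0.0483; adjusted p = 0.179 without control root replicate 3). It passed under 6 of 22 other settings. Over all 10604 tested features 223 passed (2.1%), or 485, 388 and 371 without control root replicate 1, control root replicate 2 and PEG root replicate 1, and 0 with the replicate number as a block (7.62% at an unadjusted p under 0.05). miR162 guides the cleavage of DICER-LIKE1 transcripts. The leaf counts of miR162-3p were 66, 19 and 18 in controls and 46, 916 and 3271 under PEG, and its root counts 7, 5 and 2 and 99, 309 and 16. PEG leaf replicate 1 lay within the control leaves. Summed over its names, the miR162 family had an average effect of 0.84 (adjusted p = 0.393). Names within a family are close in sequence, so reads may be split among them. In PEG leaves the name miR160 had 15356, 64 and 22598 counts and miR160a-5p 319, 7453 and 367. PEG leaf replicate 2 was thus high under the name for which the other PEG leaves were low. Whether like reads were given different names was not tested. Values of single names are uncertain, and families are the unit used here.

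Of the 14 known families above 1000 CPM on average, all but miR160 and miR171 had differences whose intervals spanned 0. miR166, a regulator of class III HD-ZIP factors, had effects of -0.11 in leaves and 0.49 in roots (difference 0.60, interval -0.60 to 1.80; 0.44 without control root replicate 3), and miR167, which targets activating auxin response factors, 0.11 and 0.46 (0.34, interval -0.68 to 1.36; 0.54 without it). miR398, a repressor of copper/zinc superoxide dismutases, had 0.11 and 0.46 (0.35, interval -1.09 to 1.78; 0.05 without control root replicate 3). miR168, which targets ARGONAUTE1 transcripts, had 0.30 and 0.86 (0.56, interval -0.77 to 1.88; 0.28 without that library) and did not overlap in roots. miR858, a regulator of MYB transcription factors, had 0.19 and 1.12 (0.93, interval -0.99 to 2.85; 0.77 without control root replicate 3). These 5 kept a positive difference under each of the 5 scalings.

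miR396, which targets growth-regulating factors, was the abundant family with the most negative difference after miR160. It stood at 34714, 47349 and 45530.3 CPM in control leaves and 57734, 71894 and 113425 CPM in PEG leaves without overlap, and at 17383, 35991 and 13035 CPM in control roots and 24816, 24445 and 24806 CPM in PEG roots with overlap. Its difference was -0.77 (interval -2.10 to 0.56, adjusted p = 0.519), -1.04 without control root replicate 3, and 0.09 with upper-quartile factors. miR159, a regulator of GAMYB factors (0.44), miR164, a regulator of NAC factors (0.53), and miR156, a regulator of SQUAMOSA promoter-binding factors (0.27, and -0.03 without control root replicate 3), lay nearer to 0. miR397, which targets laccases, had 0.20 with TMM and -0.05 with DESeq2-type factors, and miR157, a relative of miR156, had -0.22 with TMM and 0.63 with upper-quartile factors.

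Grouped by known targets, no list of families had a called member. Of 12 tested regulators of transcription factors, 8 had a positive and 4 a negative difference (median 0.47, against -0.14 over all 124 families and 0.25 over the 34 known ones, 20 of which were positive), with miR171 (1.18) and miR396 (-0.77) at the ends of smallest p. Of 4 auxin families 2 were positive and 2 negative (median -0.29), the negative ones being miR160 (-3.43) and miR393, which targets auxin receptor transcripts (-0.82, and 0.01 with upper-quartile factors). Both copper families, miR397 and miR398, were positive with TMM (median 0.27), as were both nutrition families, miR399 (0.49) and miR395 (0.63; median 0.56). Of 3 families of the small RNA pathway, miR168 (0.56) and miR403, a regulator of ARGONAUTE2 (0.09), were positive and miR162 (-0.26, and 0.76 with upper-quartile factors) negative, and all 3 had positive effects in both organs with TMM. With upper-quartile factors all 3 had negative leaf effects, and with DESeq2-type factors the root effect of miR403 was -0.13 and its leaf effect 0.02. The 16 tested drought and ABA families split into 10 positive and 6 negative (median 0.31), and the 20 conserved ones into 13 and 7 (median 0.31). With totals of all reads, 2 of the 12 regulators of transcription factors, 5 of the 16 drought families and 5 of the 20 conserved ones were negative.

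Predicted microRNAs far more abundant in roots than in leaves mostly had positive PEG effects in leaves and negative ones in roots. Their group was formed after the values were seen, as families with a mean of at least 1000 CPM in roots and at least 10 times their mean in leaves, and it is described without a test. It held 19 families, all predicted, from novel_mir73 at 10.4 times to novel_mir69 at 75.8 times the leaf level, and novel_mir58, at 8.08 times, was the abundant family just outside. Of the 19, 17 had a positive effect in leaves and a negative one in roots, and the exceptions were novel_mir24 and novel_mir51. Over all 124 families the count was 35, which includes these 17 and also novel_mir72 with a root effect of 0. The root means by which the 19 were chosen include control root replicate 3. The median difference was -2.06 (-1.74 without control root replicate 3), with a median effect of 1.13 in leaves and -1.04 in roots (-0.50 without that library). In the other scalings the median difference lay between -2.56 with DESeq2-type factors and -1.31 with microRNA totals, and 17 or 18 of the 19 were negative. Opposite signs, positive in leaves and negative in roots, held for 17 with DESeq2-type factors, 16 with totals of all reads, 15 with upper-quartile factors and 14 with microRNA totals, where the median root effect was -0.30.

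The level of these 19 families in leaves, as a median percentage of their mean over the 6 roots, was 1.36% and 1.53% in control leaf replicates 1 and 2 and 4.72% in control leaf replicate 3. In PEG leaves it was 4.12%, 5.52% and 6.43%. In roots it was 96.9%, 88.5% and 210% in controls and 56.5%, 58.4% and 68.3% under PEG. With TMM scaling control leaf replicate 3 thus lay among the PEG leaves. With CPM of all reads it stood at 4.46%, below the PEG leaves at 4.76%, 5.95% and 6.71%. Control root replicate 3 had the highest level of all libraries on both scales. Together the 19 took 1.53%, 1.61% and 2.89% of microRNA counts in control leaves, 3.04%, 3.71% and 3.11% in PEG leaves, 70.1%, 59.6% and 75% in control roots and 54.0%, 46.6% and 49.4% in PEG roots. The higher share in PEG leaves and the lower share in PEG roots moved with the shares of rRNA, tRNA and snoRNA fragments given below, and their part in the result was not tested.

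**Figure D4:**
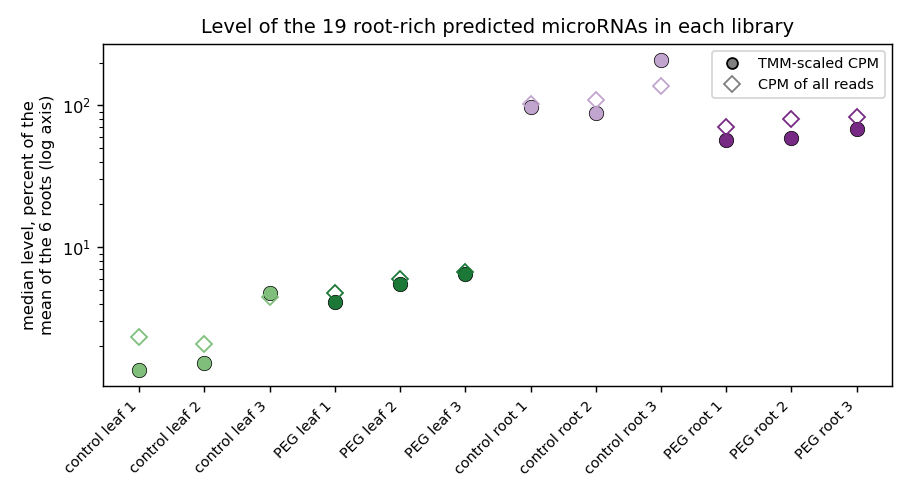
Median level of the 19 root-rich predicted microRNAs in each library as a percentage of their mean over the 6 roots (log axis), from TMM-scaled CPM (filled circles) and from CPM of all reads (open diamonds). By the circles the 3 PEG leaves and control leaf replicate 3 lie between 4.12% and 6.43%, and control leaf replicates 1 and 2 at 1.36% and 1.53%. By the diamonds control leaf replicate 3 lies below all PEG leaves. All PEG roots lie below all control roots on both scales.

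The composition of the libraries also changed differently in the 2 organs. Shares of all reads were compared by a two-sided exact permutation test of the difference of log2 PEG effects, in which PEG labels were exchanged within each organ in 400 ways, so that the smallest p is 0.005. Of 9 classes 6 passed after adjustment. Fragments of tRNA were 0.000386%, 0.000252% and 0.000504% of reads in control leaves and 0.000644%, 0.00075% and 0.000987% in PEG leaves, against 0.0336%, 0.0366% and 0.123% in control roots and 0.0247%, 0.0198% and 0.0124% in PEG roots. The groups did not overlap in either organ, with PEG leaves above and PEG roots below their controls (difference -2.64, exact permutation p = 0.005, adjusted p = 0.0225).

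Fragments of rRNA were 0.179%, 0.131% and 0.323% in control leaves and 0.331%, 0.453% and 0.22% in PEG leaves, and 2.18%, 2.16% and 2.46% in control roots and 1.17%, 1.16% and 1.26% in PEG roots (difference -1.63, exact permutation p = 0.01, adjusted p = 0.0225). Root groups were apart, while control leaf replicate 3 lay within the PEG leaves. The snoRNA share (-1.43) and the share of other Rfam RNAs (-1.71) had the same adjusted p of 0.0225 by the exact test. Predicted microRNAs as a class followed (-0.68, adjusted p = 0.0375, exact test). The siRNA share moved the other way, at 6.1%, 6.43% and 5.78% in control leaves, 5.73%, 5.55% and 6.19% in PEG leaves, 2.46%, 2.59% and 1.25% in control roots and 3.51%, 3.64% and 3.44% in PEG roots (0.89, adjusted p = 0.036, exact test). Known microRNAs had a difference of 1.03 (adjusted p = 0.0964, exact test) and snRNA one of -0.55 (adjusted p = 0.208, exact test). With single libraries left out between 4 and 7 classes passed. Over 14 other settings the shares of tRNA, rRNA, snoRNA and other Rfam RNAs passed in all 14. The predicted microRNA share passed in 8 of them and the siRNA share in 9.

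**Figure D5:**
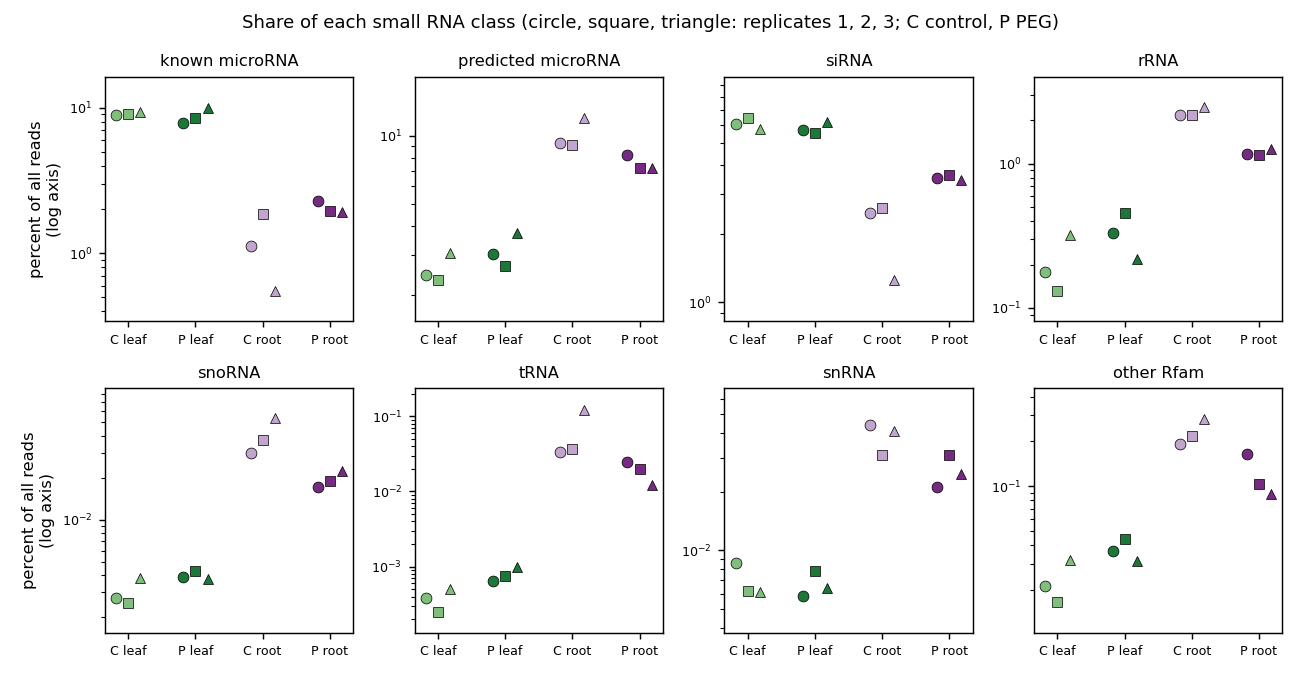
Share of all reads (percent, log axis) held by 8 classes of small RNA in each library, with circle, square and triangle for replicates 1, 2 and 3. Shares of rRNA, snoRNA and tRNA fragments in PEG roots lie below every control root, shares of siRNA in PEG roots lie above every control root, and the leaf groups are closer together.

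Tested feature by feature over the whole table, 215 of 10604 features passed for the difference (2.03%), 210 of them higher (1.98%) and 5 lower (0.0472%), and 1077 had an unadjusted p under 0.05 (10.2%). The count was 504, 381 and 373 without control root replicate 1, control root replicate 2 and PEG root replicate 1, and 0 with the replicate number as a block (7.19% of features at an unadjusted p under 0.05). All 58 tested rRNA, tRNA, snRNA and snoRNA features had a negative difference (median -2.81, against 0.42 over all features), and 4 were called. The family of bacterial large subunit rRNA went from leaf counts of 1576, 1204 and 2738 in controls to 3188, 3903 and 3953 under PEG, and from 155058, 108148 and 84746 in control roots to 32454, 23687 and 23424 in PEG roots. The organs shifted in opposite directions without overlap in TMM-scaled CPM of named features (effects 1.14 and -3.11, difference -4.25, adjusted p = 0.0167; -3.96 without control root replicate 3). The 3 snoRNAs called, guides of rRNA modification, were snoR126 (-3.50, adjusted p = 0.0221; -3.01 without control root replicate 3), snoR86 (-5.11, adjusted p = 0.0444; -3.37 without control root replicate 3) and R12 (-6.05, adjusted p = 0.0385, and 0.0533 without control root replicate 3). R12 had leaf counts of 0, 0 and 0 in controls and 3, 1 and 1 under PEG, so its fitted difference is no measure of size. Over the other settings the rRNA family passed in 19 of 22, snoR126 in 10 of 21, snoR86 in 7 of 22 and R12 in 5 of 21. With siRNAs left out of the fit 0 of 338 features passed, these 4 included (79 at an unadjusted p under 0.05).

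The 210 features with a higher PEG effect in roots were all siRNAs, the class that guides RNA-directed DNA methylation and the silencing of transposons. Most tested features were siRNAs, 10266 of 10604, so a list made of siRNAs lies near their share and does not set the class apart. Those with the smallest p were novel_sir2429, novel_sir12857 and novel_sir2103 (adjusted p = 0.0167 each), at 0 counts in all control roots. In PEG roots novel_sir2429 had 13, 13 and 17 counts, novel_sir12857 19, 19 and 27, and novel_sir2103 14, 13 and 19. In leaves novel_sir2429 had 462, 442 and 553 counts in controls and 367, 253 and 240 under PEG. The leaf groups of novel_sir2429 did not overlap, PEG lower. In roots the groups cannot be called apart after scaling, since 9 unlisted reads would amount to 3.44, 3.26 and 7.75 CPM of named features in the control roots, against 3.35, 3.31 and 3.97 CPM for novel_sir2429 in PEG roots. The PEG roots of novel_sir12857 and novel_sir2103, at most 6.31 and 4.44 CPM, also lay below that floor in control root replicate 3. With zeros of siRNAs and predicted microRNAs set to 9 counts, 0 features passed.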

How the data were processed

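Small RNA libraries from leaves and roots were prepared with Trizol and a BGI500 protocol, per the labels' protocols. The authors deposited 1 table with a raw count and a TPM value per small RNA and library, and Bowtie2 2.2.9 and Bowtie are named in the submitters' processing notes, with no role. For the genome build, mapping settings and strand the sources used here give nothing. Each TPM as deposited was its count divided by the library total and scaled to 1000000, within 0.0051 in 99.4% of cells, so only counts were used. Rows typed exon, intron or intergenic, 79.7% to 86.0% of counts, name no feature and were left out.

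Counts were summed by microRNA number for known names, and groups were taken from the sample titles. edgeR 4.0.16 (R 4.3.3) fitted group means with quasi-likelihood tests and TMM factors to features with 10 counts in at least 3 libraries, and p-values were Benjamini-Hochberg adjusted over all families or over all named features. All adjusted p-values are edgeR's unless the sentence names another test. Intervals are 95% intervals from the spread between libraries, no molecular identifiers were used, and depth was 20829490 to 33426228 counts. Every fit was repeated with other scalings, in DESeq2 1.42.0 and in limma voom 3.58.1, and with other count minimums, zeros set to 9, a replicate block, known families alone, siRNAs left out and each library left out. Each test was tried on a single simulated set of counts, with differences of 2, 4 and 6 on the log2 scale. The family test recovered 0 of 4, 6 of 9 and 6 of 7 (0%, 66.7% and 85.7%) with 0 false calls. The test over features recovered 2 of 59, 10 of 73 and 34 of 68 (3.39%, 13.7% and 50%) with 1. Simulated counts from 1 to 9 were kept, whereas the data lack them for predicted microRNAs and siRNAs. In the simulation 7587 features were tested, against 10604 in the data. Its false calls therefore do not bear on calls of features at 0 in a group. Percentages for families rest on so few that they are rough.

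Replicate numbers carry no stated meaning. Deviations of same-numbered libraries from their group means correlated over 0.1 in all 3 pairs of control root with PEG root (0.189 to 0.316) and of control leaf with control root (0.138 to 0.335), and in 0 of 3 pairs of the other 4 combinations, from -0.463 to 0.063. The numbers therefore met the limit set for pairing within the root comparison and not over the 4 groups of the difference, and the block is given where it changed a count.

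Named families were those passing a threshold, the 10 of smallest p in each direction for the difference and 5 for the average, those without overlap in both organs, known families above 1000 CPM, 2 members of each list, the microRNA names, non-siRNA features and 3 siRNAs of smallest p. The names miR160a-5p, miR319, miR394, miR403, novel_mir24, novel_mir40, novel_mir55, novel_mir56, novel_mir58, novel_mir64 and novel_mir73 were added after their values were seen. The comparison, the families and the lists were chosen with earlier results of these data known. No mature sequences or genome were used, so sequences are not printed.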

Additional observations from a re-analysis of the deposited data

Results flagged for a closer look

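These results are listed because the PEG effect differed between roots and leaves, either by a test of that difference or because PEG and control libraries lay apart in opposite directions in the 2 organs.

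Over all named features, 215 passed the test of the difference (edgeR). Among them were the bacterial large subunit rRNA family (-4.25), the snoRNAs snoR126 (-3.50), R12 (-6.05) and snoR86 (-5.11), all with a lower effect in roots, and the siRNAs novel_sir2429 (7.85), novel_sir12857 (7.71) and novel_sir2103 (7.96), with a higher one. The siRNA values are fitted against control roots at 0 counts and are no measure of size. Nor is the R12 value, which is fitted against control leaves at 0 counts. Over the other settings snoR126 passed in 10 of 21, R12 in 5 of 21 and snoR86 in 7 of 22.

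Of the class shares, tRNA (-2.64), other Rfam RNAs (-1.71), rRNA (-1.63), snoRNA (-1.43), predicted microRNAs (-0.68) and siRNA (0.89) passed the exact permutation test of the difference after adjustment. Over 14 other settings the predicted microRNA share passed in 8 and the siRNA share in 9, and the rest of these in all 14.

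Among families, novel_mir69 (-2.57), miR6300 (-3.59), novel_mir10 (-2.50), novel_mir38 (-2.98) and novel_mir84 (3.26) had libraries apart in opposite directions in the 2 organs. Their differences did not pass the test over 124 families, and the joint pattern in both organs was not tested in itself.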

How the results depend on the processing

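Calls among families depend on the settings, and the cause was not tested. For the difference, 0 families passed with TMM, microRNA totals, all-read totals, limma voom or no count minimum, 13 with DESeq2-type factors, 12 with upper-quartile factors, 30 with DESeq2, 10 with a minimum of 50 counts, 8 with zeros set to 9, 2 with known families alone, and 0 to 27 with 1 library left out. For the average, 8 passed with DESeq2, 1 with limma voom, 2 with zeros set to 9, 2 with known families alone and 0 to 5 with 1 library left out. In leaves 15 passed with DESeq2 and 0 to 25 with 1 library left out. In roots the counts were 22 with DESeq2, 1 with known families alone and 0 to 1 with 1 library left out. Over all features the difference gave 1 call with no count minimum, 39 with a minimum of 50, 0 without siRNAs, 0 when zeros were 9, and 189 to 504 with 1 library left out. The average gave 347 with limma voom, 41 with a minimum of 50, 1 with zeros set to 9, 0 with siRNAs left out and 215 to 485 with 1 library left out. Upper-quartile factors could not be fitted over all features, since that quartile is 0.

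With the replicate number as a replicate block 11 families passed for the difference, 2 in leaves and 0 in roots, 0 features passed for the difference and 0 for the average, and novel_mir51 stood at -0.30.

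Signs of these differences reversed, and none of them passed. With zeros set to 9, novel_mir26 stood at -1.06 and novel_mir30 at -1.31. novel_mir51 was -0.17 with DESeq2-type factors, -0.17 with DESeq2 and -1.15 with limma voom. With upper-quartile factors novel_mir15 was 0.16, miR396 0.095, miR157 0.63, miR393 0.0084 and miR162 0.76. With microRNA totals novel_mir15 was 0.44, miR157 0.40, miR393 0.027 and miR162 0.72, and with all-read totals novel_mir15 was 0.21, miR157 0.16 and miR162 0.38. With known families alone miR167 was -0.031 and miR397 -0.17. miR397 was also -0.055 with DESeq2-type factors and -0.053 with DESeq2, and with a minimum of 50 counts it was -0.033, miR157 0.19 and miR162 0.019. miR157 was 0.18 with limma voom. With 1 library left out the ranges that crossed 0 were -0.98 to 2.53 for novel_mir27, -2.91 to 0.81 for novel_mir51, -1.17 to 0.17 for novel_mir15, -0.30 to 0.995 for miR395, -0.078 to 0.77 for miR164, -0.0082 to 0.54 for miR167, -0.13 to 0.63 for miR398, -0.20 to 0.42 for miR156, -0.39 to 0.51 for miR397, -0.81 to 0.24 for miR157 and -0.74 to 0.19 for miR162. The average of novel_mir51 ranged from -1.74 to 0.12 and the difference of the precursor share from -2.01 to 0.36. Between 4 and 7 of the 9 classes passed with 1 library left out.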
